A study of Homo sapiens with 6 samples.

Results

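The genes described here are the human aminoacyl-tRNA synthetases and the scaffold proteins that hold some of them together. The rule that picks them reads gene symbols, not measured values, although it was set with earlier results of these data known. It takes every synthetase symbol of the cytosol, every one of the mitochondrion (suffix 2), and AIMP1, AIMP2 and EEF1E1. The rule found 41 probes for 36 genes, of 47231 probes and 20046 genes named by 1 symbol on the array. Of the 36 genes, 19 encode cytosolic synthetases, 16 encode mitochondrial synthetases and 1, AIMP1, encodes a scaffold. CARS1, AIMP2 and EEF1E1 were not analysed here.

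The study measured RNA in HeyA8-MDR cells, an ovarian cancer line in its multidrug-resistant form. The cells received either a control siRNA (siControl, 3 arrays, numbered 1, 2 and 4) or an siRNA against GRAMD1B (siGRAMD1B, 3 arrays, numbered 2, 3 and 4), and GRAMD1B encodes a sterol transfer protein of the endoplasmic reticulum. Biotin-labelled cRNA made from 500 ng of total RNA was read on Illumina bead arrays. The labels give neither the time after transfection nor the siRNA sequence, nor whether the 3 arrays of either group stem from independent cultures. The p-values therefore reflect the scatter of these arrays, which may be technical. Both groups share the same single resistant line, and each value is an average over all cells of a culture, so that fewer cells with a transcript and less transcript per cell cannot be told apart.

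Values are log2 of the background-corrected, quantile-normalised intensity plus 50, a scale that understates changes of dim probes. The adjusted p-values come from limma over all 28338 probes above the 40th percentile of brightness, with a threshold of 0.05, and each gene is read at its brightest tested probe. The median intensity of an array lay between 102.7 and 128.8. Arrays of a group correlated at 0.992 to 0.995 over probes and arrays of different groups at 0.990 to 0.992. GRAMD1B itself read 6.42, 6.41 and 6.57 in the siControl arrays and 6.26, 6.23 and 6.17 in the siGRAMD1B arrays. The groups did not overlap, but the difference of -0.25 ± 0.10 (SE) on a dim probe did not pass the test (adjusted p = 0.152) in limma. Of the 12 ovarian and epithelial markers, PAX8, KRT7, KRT8 and KRT18 were above the 70th percentile of brightness and 8 were below it (WT1, MSLN, EPCAM, CDH1, MUC16, CLDN3, CLDN4 and KRT19). Of the 6 mesenchymal markers, VIM, CDH2, AXL and SNAI2 were above it and 2 below (FN1 and ZEB1). All 7 leukocyte and blood markers and all 6 fibroblast markers were below it. The endothelial cadherin CDH5 was bright (9.70 and 9.52), and the other 4 endothelial markers were below that percentile. VWF, among these dim probes, rose by 0.38 (adjusted p = 0.0332, and 0.0519 to 0.151 without siControl replicate 1 or 4 or siGRAMD1B replicate 2 or 4). The mesenchymal cadherin CDH2 fell by 0.38 (adjusted p = 0.0226, and 0.059 to 0.085 without siControl replicate 4 or any siGRAMD1B array). The summed normalised intensity of the 7 leukocyte and blood markers was 535 to 564 in siControl and 511 to 548 in siGRAMD1B, that of the fibroblast markers 440 to 478 and 416 to 479, and that of the 5 endothelial markers 1034 to 1253 and 1008 to 1088. ABCB1, the drug efflux pump, rose by 0.59 (adjusted p = 0.0226, and 0.0639 to 0.111 without siControl replicate 1 or 2 or siGRAMD1B replicate 2 or 3). Its groups overlapped, with siControl replicate 4 at 11.86 and siGRAMD1B replicate 4 at 11.84. The part of VWF, CDH2 and ABCB1 in the results below was not tested.

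Aminoacyl-tRNA synthetases attach each amino acid to its own tRNA, the step that gives the genetic code its meaning. Most amino acids have separate enzymes for the cytosol and for the mitochondrion, both encoded in the nucleus, while GARS1 and KARS1 serve both compartments from the same gene. In the cytosol a group of synthetases sits in a multisynthetase complex on the scaffolds AIMP1, AIMP2 and EEF1E1, and the others are free. Many cytosolic synthetase genes are targets of ATF4, the transcription factor of the amino acid response, which binds composite sites of the type TGATGNAA.

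The sequences that bear on this are the stretches around TGATGNAA in the promoters of the members, since ATF4 target promoters carry such letters. Windows of 300 bases, from 250 before to 50 after each RefSeq start site, were available for 30 of the 36 genes (GRCh38.p14). These genes had 40 windows, and a gene was counted if any of its windows held the motif. AARS2, LARS1, TARS3, VARS1, VARS2 and YARS1 had no window. TGATGNAA, searched on both strands, occurred in 7 of the 30 genes (23.3%), against 4.46% of the 27303 genes with a window. In each 48-base stretch below, read 5′ to 3′ on the strand of the gene, capitals mark the match.
NARS1 (chr18:57621795-57621842, minus strand): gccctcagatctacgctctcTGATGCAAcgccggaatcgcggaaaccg
TARS1 (chr5:33440947-33440994, plus strand): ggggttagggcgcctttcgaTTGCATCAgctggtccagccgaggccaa
MARS1 (chr12:57488044-57488091, plus strand): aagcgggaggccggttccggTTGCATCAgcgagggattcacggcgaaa
IARS1 (chr9:92293683-92293730, minus strand): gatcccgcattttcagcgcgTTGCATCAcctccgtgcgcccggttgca
GARS1 (chr7:30594825-30594872, plus strand): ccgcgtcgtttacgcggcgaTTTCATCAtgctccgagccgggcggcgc
AARS1 (chr16:70289666-70289713, minus strand): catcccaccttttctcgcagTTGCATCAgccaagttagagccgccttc
YARS2 (chr12:32756067-32756114, minus strand): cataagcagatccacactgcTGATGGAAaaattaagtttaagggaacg
AARS1, IARS1, MARS1, NARS1 and TARS1 carried the same 8 letters, TTGCATCA or its reverse complement TGATGCAA. GARS1 and YARS2 differed from them within the motif. Positions count the RefSeq start site within the window as 1 and the base before it as -1. The first base of the match lay at 15 in NARS1, 3 in TARS1, -4 in MARS1, -13 in IARS1 and -33 in GARS1. These 5 lay close to the RefSeq start site of the window that holds them. TARS1 and GARS1 each had another window at a start further upstream (chr5:33440446-33440745 and chr7:30594485-30594784), which held no match. The matches of AARS1 and YARS2 lay further upstream, at -187 and -197. The E-box CACGTG, the site of MYC and related factors, occurred in 4 of the 30 genes (13.3%), CARS2, EARS2, IARS1 and MARS2, against 8.78% of all genes with a window. A match describes the letters of the window and is not evidence that a factor binds there.

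**Figure D1:**
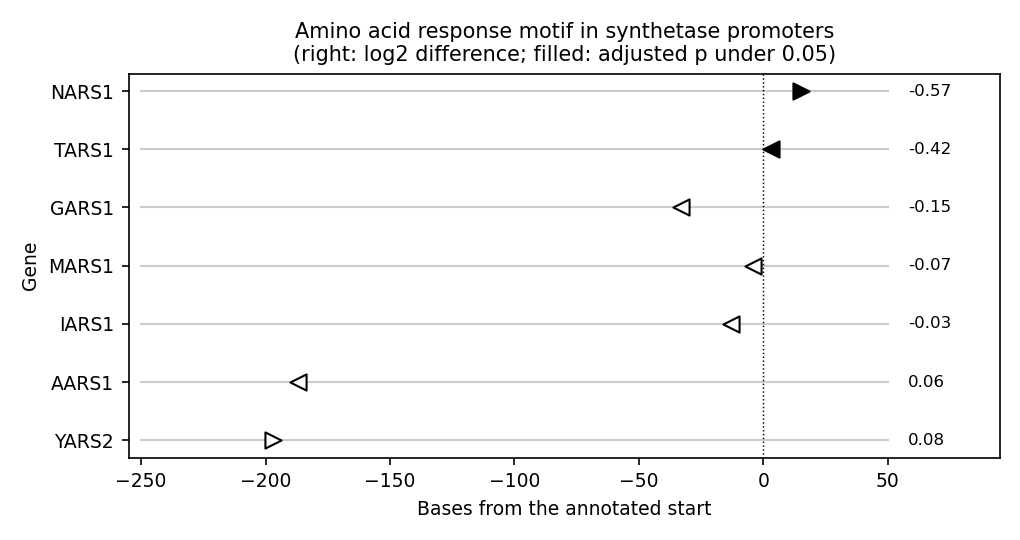
Position of the TGATGNAA match in bases from the RefSeq start site of the window that holds it (x axis), with 1 row per gene. TARS1 and GARS1 each have another window, at a start further upstream, that holds no match and is not shown. Triangles point along the strand of the match and are filled for genes past the threshold, and the number at the right is the log2 difference between siGRAMD1B and siControl. The matches to TGATGNAA in NARS1, TARS1, MARS1, IARS1 and GARS1 lie between -33 and 15, and those of AARS1 and YARS2 lie at -187 and -197.

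Most synthetase transcripts did not pass the test after siGRAMD1B treatment. Of the 36 genes, 5 passed (13.9%), against 9.47% of the 14261 genes tested at their brightest probe and 7.11% of all probes tested. NARS1, TARS1 and SARS2 fell, which is 8.33% of the members against 3.74% of all genes, and AARS2 and FARS2 rose, which is 5.56% against 5.72%. The largest of these changes, in NARS1, was 1.49-fold. The median difference over the 36 genes was -0.01, against 0.009 over all genes, and 16 differences were positive and 20 negative.

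For the other 31 genes, each 95% confidence interval lay within 1.5-fold (0.585 on the log2 scale) in either direction, and 24 of the intervals included 0. This bound rests on the offset of 50, on the test and on the set of arrays. With an offset of 16 the intervals of 6 genes (AIMP1, HARS1, LARS2, TARS2, TARS3 and WARS2) passed 1.5-fold, and that of WARS2 ran from -0.91 to 0.01. Without siControl replicate 2 the intervals of AIMP1, HARS1, LARS1 and WARS2 passed it, without siGRAMD1B replicate 3 those of HARS1 and WARS2, and without siControl replicate 4 that of HARS1. With an ordinary test per probe the intervals of AIMP1, IARS1, LARS1, LARS2 and WARS2 passed it. With the replicate number as a block, those of TARS2 and WARS2 did. Before adjustment, 12 of the 36 genes (33.3%) had a p under 0.05, against 23.4% of all genes. The arrays of the groups did not overlap in 10 genes (27.8%), against 28.4% of all genes, so that the share of separated genes was close to the background. The SD of a member within a group ranged from 0.02 to 0.34, with a median of 0.11. Within siControl, replicate 2 read lowest in 21 of the 36 genes and replicate 4 highest in 19.

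**Figure D2:**
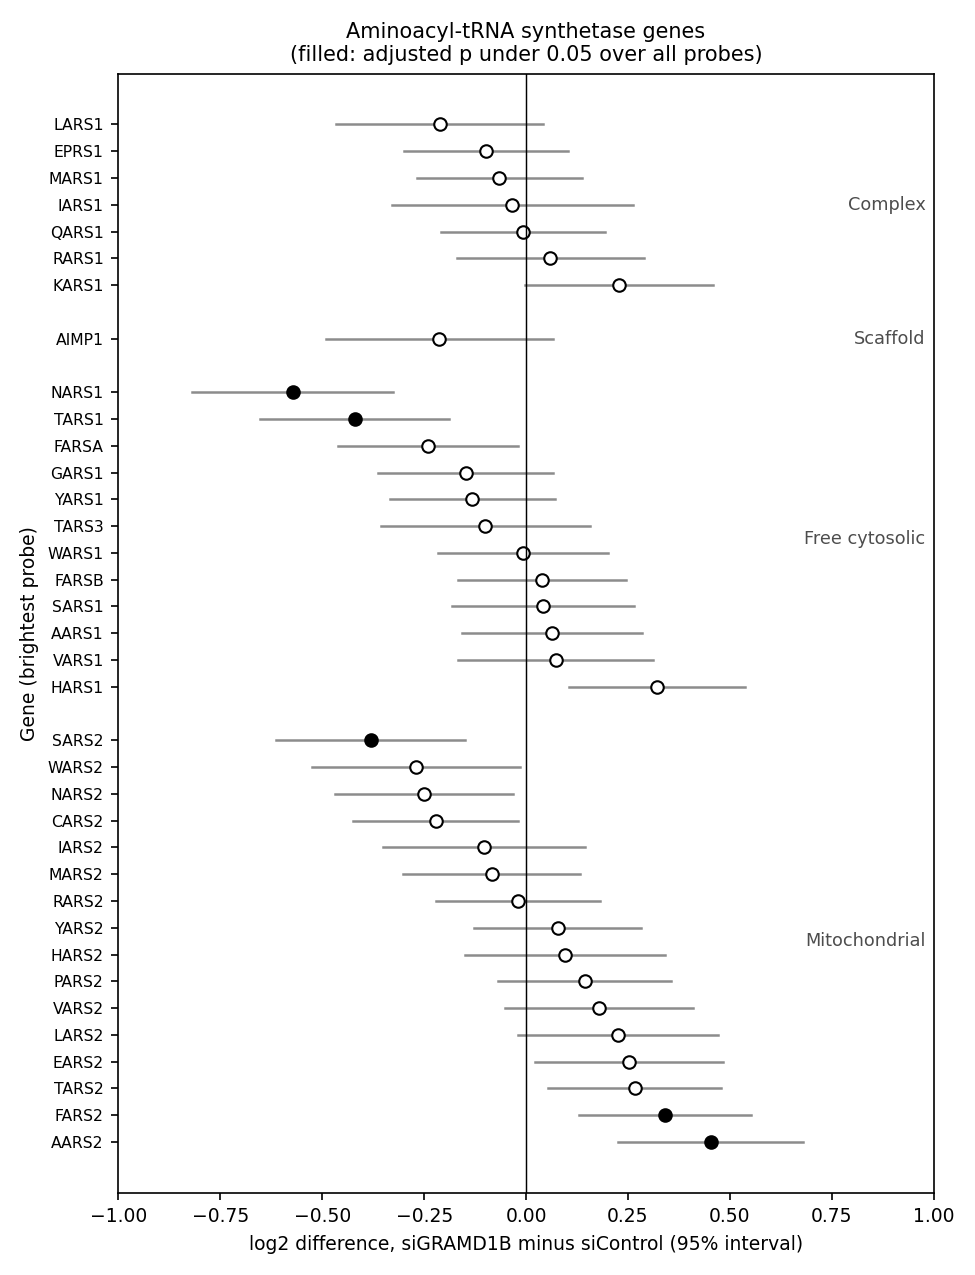
Difference between siGRAMD1B and siControl (log2, x axis) for each of the 36 genes, with its 95% confidence interval, grouped into the complex, its scaffold, free cytosolic and mitochondrial enzymes, with filled points for genes past the threshold. NARS1 at -0.57 and AARS2 at 0.45 lie farthest from 0, and 31 genes did not pass the test.

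Among the cytosolic synthetases, 2 of 19 fell, 0 rose and 17 did not pass, with a median difference of -0.03. Over all tested genes 3.74% fell and 5.72% rose. Both cytosolic synthetases that fell are free enzymes. NARS1, which charges tRNA with asparagine, read 12.01, 11.78 and 12.12 in the siControl arrays and 11.26, 11.61 and 11.32 in the siGRAMD1B arrays. Every siGRAMD1B array lay below every siControl array. The means were 11.97 ± 0.18 and 11.40 ± 0.19 (SD, n = 3), a fall of 1.49-fold, or -0.57 ± 0.12 (SE; 95% interval -0.82 to -0.33; limma adjusted p = 0.00514). Leaving out any of the 6 arrays in turn kept NARS1 past the threshold, at adjusted p-values of 0.0025 to 0.0381.

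TARS1, which charges tRNA with threonine, read 12.37, 12.29 and 12.52 with siControl and 11.99, 12.13 and 11.79 with siGRAMD1B. The groups were again apart, by a narrower gap. The means were 12.39 ± 0.12 and 11.97 ± 0.17 (SD, n = 3), a fall of 1.34-fold, or -0.42 ± 0.11 (SE; limma adjusted p = 0.0251). This call depended on single arrays, since the adjusted p was 0.0715 without siControl replicate 1, 0.0716 without siControl replicate 4, 0.0707 without siGRAMD1B replicate 2 and 0.145 without siGRAMD1B replicate 4.

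HARS1, which charges tRNA with histidine, had the largest difference among members that did not pass. Its siControl arrays read 9.69, 9.92 and 9.99, and its siGRAMD1B arrays 10.18, 10.17 and 10.21. The latter were nearly equal and all above siControl, yet the difference of 0.32 ± 0.10 (SE) had an adjusted p of 0.0701 in limma. Without siControl replicate 4 it was 0.38, with an adjusted p of 0.0407. HARS1 and its mitochondrial counterpart HARS2 are transcribed in opposite directions from neighbouring start sites, and the difference of HARS2 was 0.09 (adjusted p = 0.739). The 84 bases between both start sites, at chr5:140691371-140691454, are shown on the plus strand because they lie upstream of both genes. The windows of the pair share 184 bases, which include this stretch.
HARS1 and HARS2: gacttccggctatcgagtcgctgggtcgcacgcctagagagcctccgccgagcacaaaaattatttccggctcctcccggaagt
This stretch held neither TGATGNAA nor CACGTG.

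The other free cytosolic synthetases gave smaller differences, and none of them passed. FARSA, the catalytic subunit of the phenylalanine enzyme, read 8.72, 8.45 and 8.73 with siControl and 8.34, 8.39 and 8.46 with siGRAMD1B, a difference of -0.24 (adjusted p = 0.205). Its partner subunit FARSB, whose probe was very bright, differed by 0.04 with an interval of -0.17 to 0.25. GARS1 for glycine differed by -0.15 and YARS1 for tyrosine by -0.13. The differences were 0.06 for AARS1 (alanine), 0.04 for SARS1 (serine), 0.07 for VARS1 (valine) and -0.01 for WARS1 (tryptophan). TARS3, a second cytosolic threonine enzyme, was read at a dim probe and differed by -0.10 with an interval of -0.36 to 0.16. WARS1 is known as an interferon gamma target, and its second probe also gave a small difference, 0.08.

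None of the 7 synthetases of the multisynthetase complex passed, and none had a p under 0.05 before adjustment. Over all tested genes 9.47% passed and 23.4% had a p under 0.05, so none among 7 says little about the complex. The median difference of the 7 was -0.03, with a range from -0.21 for LARS1 (leucine) to 0.23 for KARS1 (lysine). KARS1 read 9.21, 9.48 and 9.38 with siControl and 9.42, 9.70 and 9.64 with siGRAMD1B, and LARS1 read 10.21, 9.95 and 10.50 against 9.98, 10.06 and 9.99. In both genes the groups overlapped. EPRS1, which charges both glutamate and proline, differed by -0.10, MARS1 (methionine) by -0.07, IARS1 (isoleucine) by -0.03, QARS1 (glutamine) by -0.01 and RARS1 (arginine) by 0.06. The interval of QARS1 ran from -0.21 to 0.19, among the narrower ones.

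The scaffold AIMP1, which anchors RARS1 and QARS1 in the complex, read 7.81, 7.19 and 7.76 with siControl and 7.34, 7.38 and 7.41 with siGRAMD1B. The siControl arrays 1 and 4 lay above all siGRAMD1B arrays and siControl replicate 2 below them. The difference was -0.21 (adjusted p = 0.420 in limma). Without siControl replicate 2 it was -0.41 with an adjusted p of 0.0285, so that this array decided the call. This gene was examined further after that value had been seen.

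Among the mitochondrial synthetases, 2 of 16 rose, 1 fell and 13 did not pass, with a median difference of 0.09. Over all tested genes 5.72% rose and 3.74% fell, and counts this small give no direction for the compartment. AARS2, the mitochondrial alanine enzyme, read 7.64, 7.46 and 7.60 with siControl and 8.21, 7.88 and 7.97 with siGRAMD1B. All siGRAMD1B arrays lay above all siControl arrays. The means were 7.57 ± 0.09 and 8.02 ± 0.17 (SD, n = 3), a rise of 1.37-fold, or 0.45 ± 0.11 (SE; limma adjusted p = 0.0145). The adjusted p was 0.0543 without siControl replicate 2 and 0.0987 without siGRAMD1B replicate 2, the array with the highest value.

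FARS2, the mitochondrial phenylalanine enzyme, read 9.06, 8.94 and 8.86 with siControl and 9.29, 9.22 and 9.37 with siGRAMD1B. Its groups did not overlap. The means were 8.95 ± 0.10 and 9.29 ± 0.08 (SD, n = 3), a rise of 1.27-fold, or 0.34 ± 0.10 (SE; limma adjusted p = 0.0470). The call was lost when any of the 6 arrays was left out, with adjusted p-values of 0.0582 (siControl replicate 1), 0.0976 (siControl replicate 2), 0.115 (siControl replicate 4), 0.128 (siGRAMD1B replicate 2), 0.0763 (siGRAMD1B replicate 3) and 0.178 (siGRAMD1B replicate 4).

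SARS2, the mitochondrial serine enzyme, read 10.20, 10.20 and 9.94 with siControl and 9.86, 9.57 and 9.77 with siGRAMD1B. The lowest siControl array and the highest siGRAMD1B array were close to each other, without overlap. The means were 10.12 ± 0.15 and 9.73 ± 0.15 (SD, n = 3), a fall of 1.30-fold, or -0.38 ± 0.11 (SE; limma adjusted p = 0.0428). The adjusted p rose to 0.159 without siControl replicate 1, 0.124 without siControl replicate 2, 0.0536 without siGRAMD1B replicate 2, 0.203 without siGRAMD1B replicate 3 and 0.102 without siGRAMD1B replicate 4.

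**Figure D3:**
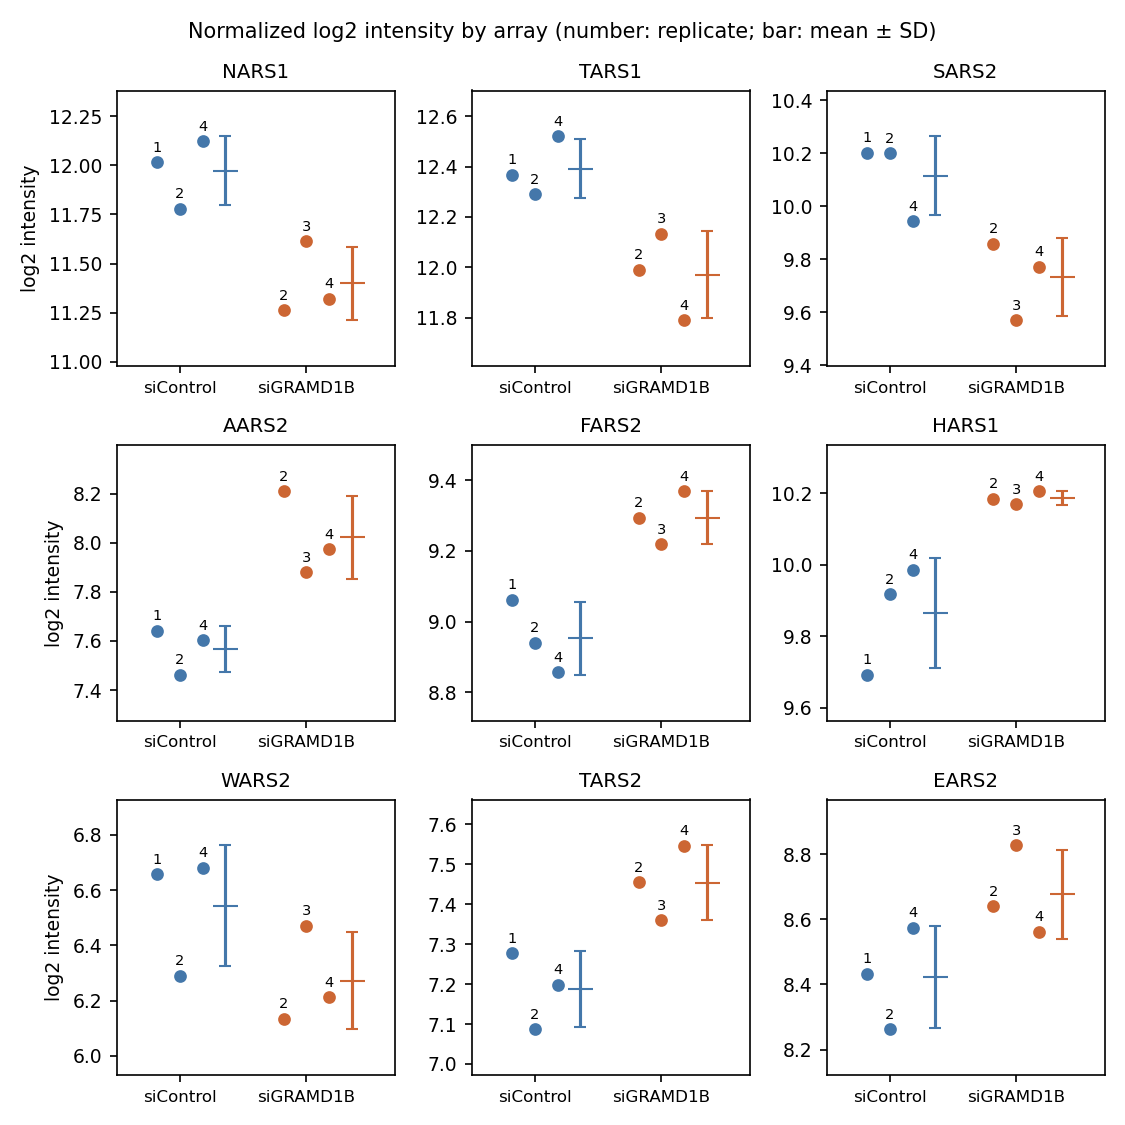
Log2 value in each array (y axis) for the genes that passed the test and the members with the largest differences that did not, with the replicate number at each point and bars for the mean ± SD of siControl and siGRAMD1B. The groups do not overlap in NARS1, TARS1, SARS2, AARS2 and FARS2, which passed, nor in HARS1 and TARS2, which did not pass. They overlap in WARS2 and EARS2.

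Several other mitochondrial synthetases had differences between 0.22 and 0.27 in size that did not pass. TARS2 (threonine) read 7.28, 7.09 and 7.20 with siControl and 7.46, 7.36 and 7.55 with siGRAMD1B, a difference of 0.27 (adjusted p = 0.134) with no overlap. EARS2 (glutamate) read 8.43, 8.26 and 8.57 against 8.64, 8.83 and 8.56, a difference of 0.25 (adjusted p = 0.203) with overlap. WARS2 (tryptophan), a dim probe, read 6.66, 6.29 and 6.68 against 6.13, 6.47 and 6.21, a difference of -0.27 (adjusted p = 0.222) with overlap. NARS2 (asparagine) and CARS2 (cysteine) differed by -0.25 and -0.22, and the arrays of CARS2 did not overlap. Differences on the positive side were 0.23 for LARS2 (leucine), 0.18 for VARS2 (valine), 0.14 for PARS2 (proline), 0.09 for HARS2 (histidine) and 0.08 for YARS2 (tyrosine). IARS2 (isoleucine), MARS2 (methionine) and RARS2 (arginine) differed by -0.10, -0.08 and -0.02. A second, dimmer MARS2 probe differed by -0.26 (adjusted p = 0.170). Before adjustment 8 of the 16 mitochondrial genes had a p under 0.05, against 23.4% of all genes. Of these 8, AARS2, FARS2, TARS2 and EARS2 were positive and SARS2, NARS2, CARS2 and WARS2 negative.

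Cytosolic and mitochondrial genes for the same amino acid were set in 15 pairs, of which 7 had differences of opposite sign and 8 of the same sign. FARS2 stands in the pairs of both FARSA and FARSB, and EPRS1 was paired with EARS2 only. The proline pair, EPRS1 (-0.10) and PARS2 (0.14), was not counted and has opposite signs. For threonine they were -0.42 (TARS1) and 0.27 (TARS2), and for phenylalanine -0.24 (FARSA) and 0.04 (FARSB) against 0.34 (FARS2). For leucine they were -0.21 (LARS1) and 0.23 (LARS2), and for alanine 0.06 (AARS1) and 0.45 (AARS2). The mitochondrial difference was the lower for serine, at 0.04 (SARS1) and -0.38 (SARS2). It was also the lower for histidine (0.32 and 0.09), arginine (0.06 and -0.02), tryptophan (-0.01 and -0.27), isoleucine and methionine. For tyrosine the differences were -0.13 (YARS1) and 0.08 (YARS2). In asparagine both were negative, at -0.57 (NARS1) and -0.25 (NARS2). The differences within the pairs for methionine (-0.07 and -0.08), isoleucine (-0.03 and -0.10) and valine (0.07 and 0.18) had the same sign. Within each array, the threonine pair (TARS1 minus TARS2, relative to the siControl mean) read -0.11, 0.00 and 0.12 in siControl and -0.67, -0.43 and -0.96 in siGRAMD1B, which did not overlap. Nor did the groups overlap in the pairs for alanine, leucine, asparagine and serine, in FARSA or FARSB with FARS2, or in EPRS1 with EARS2. In the remaining pairs they overlapped. The 15 pairs were set side by side after their values were known, and an exact permutation test of 3 arrays against 3 cannot go below 0.10, so the contrast within a pair carries no test.

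**Figure D4:**
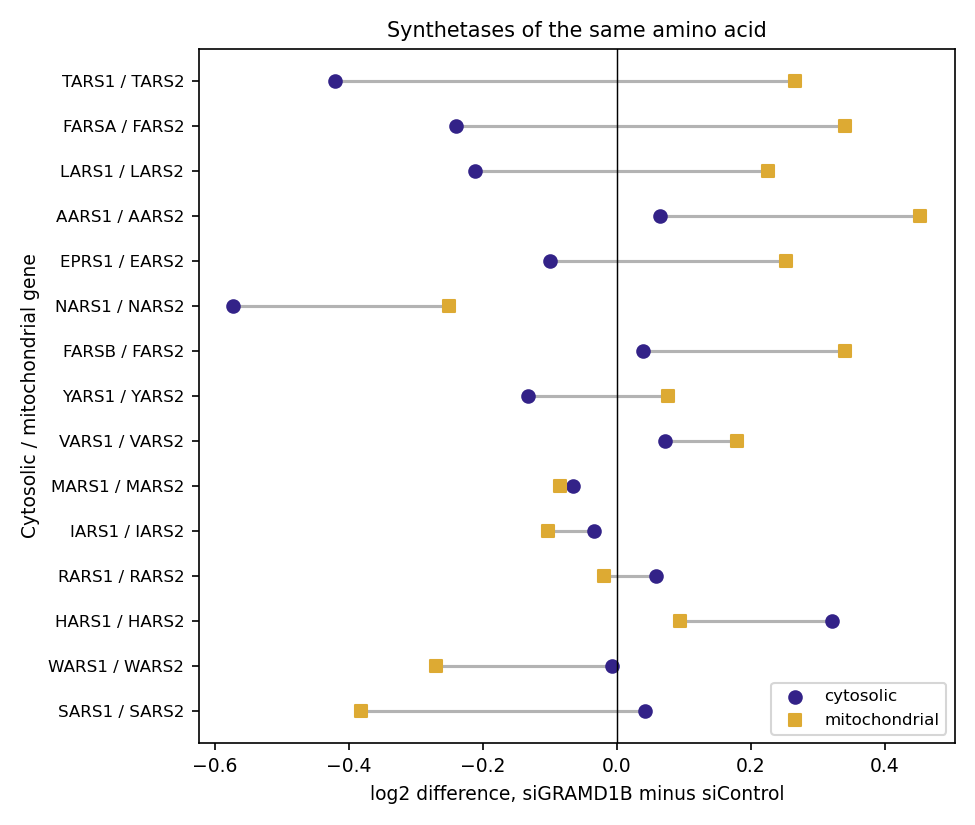
Difference between siGRAMD1B and siControl (log2, x axis) for enzymes of the same amino acid, with 1 row per pair, circles for the cytosolic and squares for the mitochondrial gene. The threonine pair lies at -0.42 and 0.27, and the asparagine pair at -0.57 and -0.25.

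Synthetases fall into 2 structural classes with unrelated catalytic folds. All 5 genes that passed encode class II enzymes, 2 higher and 3 lower of 17, while 0 of the 17 class I genes passed (limma). Over all tested genes 9.47% passed, so a count of 0 among 17 says little about class I. Before adjustment, 9 class II genes and 3 class I genes had a p under 0.05, against 23.4% of all genes. This grouping was made after the calls were known and is a description without a test, and EPRS1, which holds both classes, and AIMP1 were left out of it.

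The members that carry TGATGNAA had differences on both sides of 0. Of the 7 members with TGATGNAA, NARS1 and TARS1 fell, 0 rose and 5 did not pass, with a median difference of -0.07. Among the 23 members with a window and without the motif, 1 rose and 1 fell. Over all 346 tested genes with the motif, 6.07% rose and 3.76% fell, against 5.96% and 3.82% of all 11180 tested genes with a window. AARS1, IARS1 and MARS1, which share the 8 letters of NARS1 and TARS1, differed by only 0.06, -0.03 and -0.07. The whole windows that hold the match in NARS1 and TARS1, the genes with the motif that fell, are given next with the match in capitals.
NARS1 (chr18:57621787-57622086, minus strand): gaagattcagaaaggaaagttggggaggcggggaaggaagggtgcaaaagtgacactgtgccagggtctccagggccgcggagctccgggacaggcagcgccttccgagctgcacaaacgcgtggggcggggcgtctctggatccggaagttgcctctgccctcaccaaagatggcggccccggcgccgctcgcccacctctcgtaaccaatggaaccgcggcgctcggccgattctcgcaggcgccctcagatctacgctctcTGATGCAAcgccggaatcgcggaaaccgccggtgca
TARS1 (chr5:33440715-33441014, plus strand): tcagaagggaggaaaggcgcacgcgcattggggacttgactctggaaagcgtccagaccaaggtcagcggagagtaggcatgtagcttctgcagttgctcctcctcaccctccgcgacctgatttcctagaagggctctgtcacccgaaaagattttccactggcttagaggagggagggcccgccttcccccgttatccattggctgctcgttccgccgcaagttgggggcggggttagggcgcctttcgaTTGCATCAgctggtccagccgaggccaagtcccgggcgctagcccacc

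The wider amino acid response was mixed in direction. Of 34 tested genes in a list of the amino acid response kinases and ATF4 targets, 3 rose, 3 fell and 28 did not pass, with a median difference of 0.04. Among all tested genes 5.72% rose and 3.74% fell. SLC7A5, the light chain of the large neutral amino acid transporter, read 11.81, 11.83 and 11.93 with siControl and 12.61, 12.57 and 12.59 with siGRAMD1B, a rise of 0.73 ± 0.10 (SE; limma adjusted p = 8.8e-05). SLC7A1, a transporter of cationic amino acids, rose by 0.56 (adjusted p = 0.00156). EIF2S1, the eIF2 subunit that the response kinases phosphorylate, fell by 0.56 (adjusted p = 0.0021), and PSAT1, an enzyme of serine synthesis, fell by 0.52 (adjusted p = 0.00216). SLC3A2, the heavy chain that pairs with SLC7A5, rose by 0.34 and SHMT2, the mitochondrial serine hydroxymethyltransferase, fell by 0.34, and both were named after their values were seen (adjusted p = 0.0374 and 0.0443). Each passed again when siControl replicate 4 was left out, and leaving out any other array gave 0.0725 to 0.141 for SLC3A2 and 0.0809 to 0.188 for SHMT2. Classical targets did not pass, with differences of -0.26 for ASNS (asparagine synthetase), 0.34 for TRIB3 and -0.17 for ATF4 itself. Of the 6 genes of the list with TGATGNAA, 2 rose and 0 fell, against 6.07% and 3.76% of all tested genes with the motif. A count this small gives no direction, here or for the members with the motif.

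Of 34 tested genes for transcription, processing and export of tRNA, 0 rose and 3 fell, with a median of -0.02. Over all genes 5.72% rose and 3.74% fell, and counts this small give no direction for a list. POLR3G, a subunit of RNA polymerase III, read 9.40, 9.52 and 9.55 with siControl and 8.90, 8.95 and 8.93 with siGRAMD1B, a fall of 1.47-fold (limma adjusted p = 0.00132). POLR3K, another subunit of the same polymerase, fell by 0.48 (adjusted p = 0.0117, and 0.0805 without siGRAMD1B replicate 2). TSEN15, a subunit of the tRNA splicing endonuclease, fell by 0.37 (adjusted p = 0.0269). It passed again without siControl replicate 4, and leaving out any other array gave 0.0541 to 0.122. Of 10 genes that process mitochondrial tRNA, TRIT1, which modifies adenosine next to the anticodon, fell by 0.40 (adjusted p = 0.0141, and 0.057 to 0.0651 without siControl replicate 1, siGRAMD1B replicate 2 or siGRAMD1B replicate 4), 0 rose and the median was -0.13. Of 9 mitochondrial translation factors, MRRF, the ribosome recycling factor, fell by 0.35 (adjusted p = 0.0371, and 0.0896 to 0.135 without any array other than siControl replicate 4), 0 rose and the median was -0.12. None of 7 cytosolic elongation factors and none of 9 genes for tRNA editing, transamidation and formylation passed in limma, with 0 and 2 genes under an unadjusted p of 0.05.

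The last lists touch on known roles of synthetases outside translation, LARS1 as a leucine sensor for mTORC1 and WARS1 in the interferon response. Of 23 tested genes for leucine sensing and mTORC1, 2 rose and 1 fell, with a median of 0.06. Among all tested genes 5.72% rose and 3.74% fell, so counts this small give no direction for either list. SESN1, a leucine-sensing inhibitor of mTORC1, fell by 0.44 (limma adjusted p = 0.0151, and 0.057 to 0.0727 without siControl replicate 1, siGRAMD1B replicate 2 or siGRAMD1B replicate 4). LAMTOR4, a subunit of the lysosomal anchor of mTORC1, rose by 0.39 (adjusted p = 0.0485, and 0.0821 to 0.251 without siControl replicate 1 or 4 or siGRAMD1B replicate 2 or 4), and CASTOR2, a relative of the arginine sensor CASTOR1, rose by 0.40 at a dim probe (adjusted p = 0.0326, and 0.125 to 0.171 without siControl replicate 1 or siGRAMD1B replicate 2 or 3). Of 12 tested genes of the interferon gamma response, TAP1, which carries peptides for antigen presentation, rose by 0.46 (adjusted p = 0.00768, and 0.0535 without siGRAMD1B replicate 4). GBP1, a guanylate-binding protein, fell by 0.34 (adjusted p = 0.0421, and 0.0712 to 0.18 when any array was left out), and the median of the list was -0.10.

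**Figure D5:**
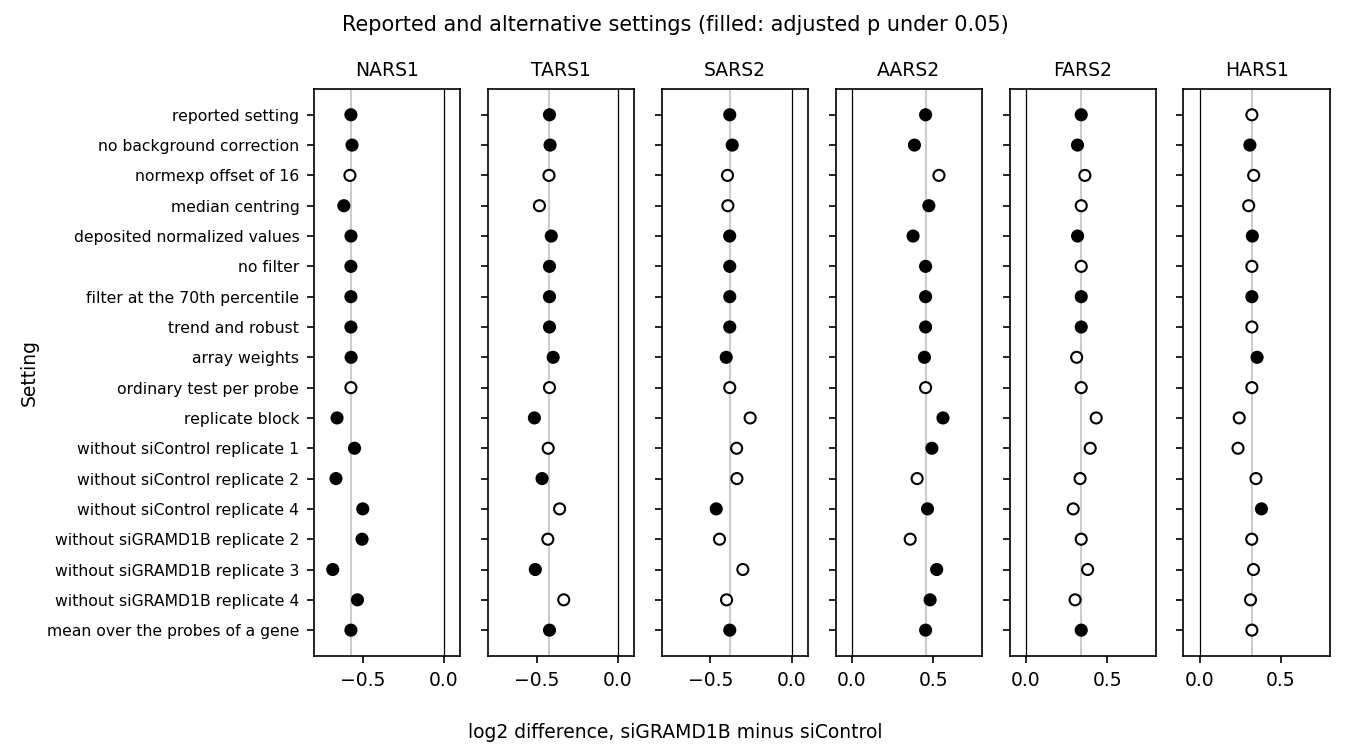
Difference between siGRAMD1B and siControl (log2, x axis) of 6 members under the reported and each alternative setting (rows), with filled points for an adjusted p under 0.05. NARS1 passes in 15 of 17 alternatives, AARS2 in 13, TARS1 in 10, SARS2 in 8 and FARS2 in 5.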

How the data were processed

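Total RNA from HeyA8-MDR cells was measured on Illumina bead arrays, 3 per group. Signals were exported with a version of BeadStudio (named in the submitters' processing notes) that was not given in the sources used here. Linear, unnormalised intensity values were deposited for 47231 probes, with 0 columns of other samples. The header names of that table stand 1 field to the right of the values, and the assignment was checked against the deposited log2 values, normalised by the authors in an unstated way (rank correlation 1.00 for the same array, at most 0.85 for another). From the intensities, limma 3.58.1 in R 4.3.3 applied normexp (offset 50), quantile normalisation and log2. Probes above the 40th percentile of mean value (28338) were tested with lmFit and eBayes (2-sided), with Benjamini-Hochberg adjustment over all of them. The number of arrays limits the precision. Symbols came from the platform annotation (30113 probes with 1 symbol). By rule the text names every member, with array values for members that passed and the 4 largest that did not, and up to 4 passing genes per other list. Array values of FARSA, KARS1, LARS1 and AIMP1, and the names SLC3A2, SHMT2 and those of the moving markers, were added after their values were seen. The members and lists were chosen with earlier results of these data known. Alternatives covered background, normalisation, filter, test, probe choice, single arrays and the replicate number. The script was tested on simulated data. Promoter windows are from RefSeq (GRCh38.p14).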

Additional observations from a re-analysis of the deposited data

How the results depend on the processing

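For the members that passed, HARS1, WARS2, TARS2, EARS2 and AIMP1, no direction reversed in the alternatives run (up to 17 for each gene). The same held for GRAMD1B and for the named genes of other lists that passed. The other named genes were not followed there, and some of them lie near 0. At a second, dimmer probe FARSB differed by -0.10 (0.04 at the brightest) and WARS1 by 0.08 (-0.01 at the brightest). The count of members that rose (2) became 0 with a normexp offset of 16 and with an ordinary test per probe, and 1 with median centring or no filter. The count that fell (3) became 0 with the offset of 16 and the ordinary test, and 1 with median centring. Leaving out each array in turn gave 0 to 2 that rose and 1 to 3 that fell. The same settings lowered the calls over all probes, from 1103 higher and 913 lower to 455 and 235 (offset of 16), 603 and 419 (median centring) and 164 and 91 (ordinary test), and leaving out arrays gave 671 to 1157 higher and 450 to 1039 lower; the cause was not tested. No background correction, the deposited log2 values and a filter at the 70th percentile each gave 3 that rose, with HARS1 added. The cytosolic median ranged from -0.06 to 0.0011 and the mitochondrial median from 0.0561 to 0.1187 when arrays were left out.

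Replicate numbers 2 and 4 occur in both groups, and the labels do not say whether they pair the samples. Deviations of same-numbered arrays correlated at 0.0245 and -0.1546, against up to 0.1886 for differently numbered arrays. Deviations from a mean of 3 arrays depend on each other, so these correlations cannot decide whether the numbers pair the samples. With the number as a replicate block, 1 member rose and 2 fell, the mitochondrial median was 0.0272, and the probes called were 574 higher and 411 lower. In that limma fit SARS2 and FARS2 lost their calls (adjusted p = 0.512 and 0.0973). NARS1 lost its call at an offset of 16 (adjusted p = 0.0742) and in the ordinary test (0.199). GRAMD1B passed in 0 of 16 alternatives (adjusted p 0.112 to 0.449).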
